A study of Mus musculus with 6 samples.

Results

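The NR4A and EGR activation genes are 10 genes that lymphocytes switch on early after a signal. They were taken by name from the deposited table of 54532 genes, in which all 10 were found, and all 10 passed the filter on low counts. They comprise the nuclear receptors Nr4a1, Nr4a2 and Nr4a3, the zinc finger factors Egr1, Egr2 and Egr3, the early response genes Ier2 and Ier5, the surface protein gene Cd69 and the mRNA decay factor gene Zfp36. Bulk RNA was sequenced from CD8+ T cells of mouse liver in 3 libraries of a CUMS group and 3 libraries of a control group. The title of the series is about chronic stress, but the abbreviation CUMS is not spelled out in the labels. In the genotype field the CUMS libraries carry the entry CUMS and the control libraries the entry Wild type. The labels used here give no age, sex, strain, duration of the stress or method of cell purification for either group. Nothing in them says that each library is a different animal, so every p-value below reflects library-to-library spread that may be technical.

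The genes work at different levels of one early response. When the T cell receptor is engaged, calcium with calcineurin and NFAT, and the RAS and ERK kinases with the factors SRF, ELK and CREB, start transcription of these genes without new protein synthesis, and the messages are short-lived. The EGR proteins bind GC-rich DNA and activate or restrain later T cell genes, the NR4A proteins are orphan nuclear receptors that follow the strength of the receptor signal and are known from tolerant and exhausted T cells, CD69 holds cells in tissue by drawing the egress receptor S1PR1 from the surface, and ZFP36 (tristetraprolin) binds AU-rich elements and speeds the decay of cytokine messages.

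Promoter sequences are shown for the NR4A genes, Egr2 and Zfp36 because the sequences differed in which early response elements they held. No promoter sequence was at hand for Egr1, Egr3, Ier2 or Cd69, so Egr2 is the only EGR gene shown. Whether these elements went with the directions of change was not tested. RefSeq windows of 300 bases (build GRCm38.p6, 250 bases before and 50 after a start site, written 5′ to 3′ along the gene) were at hand for 6 of the 10 genes, in 10 windows. Of the 5 for Egr2, 3 held both a CArG box and TGACG, and the first of these along the chromosome is printed. It was thus chosen for its matches. The Egr2 window that spans the start of the deposited gene (chr10:67535249-67535548) held no CArG box, TGACG or EGR site, and the printed window lies downstream of it. The only windows of Nr4a1 and Zfp36 also lie downstream of the starts of their deposited genes, at 101254269 and 28380253. Those of Nr4a2 and Nr4a3 span the start. Capitals mark matches on either strand to the CArG box (the binding element of SRF), to TGACG (the half-site of the cyclic AMP response element bound by CREB), or to the EGR site GCGNGGGCG.
Nr4a1 (chr15:101266596-101266895, plus strand): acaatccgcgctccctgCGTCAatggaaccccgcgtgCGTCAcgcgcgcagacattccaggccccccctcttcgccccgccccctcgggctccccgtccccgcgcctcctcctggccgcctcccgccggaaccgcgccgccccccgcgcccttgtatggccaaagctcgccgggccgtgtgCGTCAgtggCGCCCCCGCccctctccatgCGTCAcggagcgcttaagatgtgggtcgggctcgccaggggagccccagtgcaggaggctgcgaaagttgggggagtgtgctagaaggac
Nr4a2 (chr2:57123954-57124253, minus strand): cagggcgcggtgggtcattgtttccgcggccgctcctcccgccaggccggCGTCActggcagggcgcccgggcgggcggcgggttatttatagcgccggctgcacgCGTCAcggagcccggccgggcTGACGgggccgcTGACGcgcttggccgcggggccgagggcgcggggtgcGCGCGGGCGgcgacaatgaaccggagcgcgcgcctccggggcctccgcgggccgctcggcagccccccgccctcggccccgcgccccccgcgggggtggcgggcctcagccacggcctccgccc
Nr4a3 (chr4:48045055-48045354, plus strand): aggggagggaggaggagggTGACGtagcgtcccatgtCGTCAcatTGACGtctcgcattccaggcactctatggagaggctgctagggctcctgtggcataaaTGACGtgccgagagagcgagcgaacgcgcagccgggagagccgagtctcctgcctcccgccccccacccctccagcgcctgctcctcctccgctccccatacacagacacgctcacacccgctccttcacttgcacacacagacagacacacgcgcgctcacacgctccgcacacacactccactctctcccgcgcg
Egr2 (chr10:67537619-67537918, plus strand): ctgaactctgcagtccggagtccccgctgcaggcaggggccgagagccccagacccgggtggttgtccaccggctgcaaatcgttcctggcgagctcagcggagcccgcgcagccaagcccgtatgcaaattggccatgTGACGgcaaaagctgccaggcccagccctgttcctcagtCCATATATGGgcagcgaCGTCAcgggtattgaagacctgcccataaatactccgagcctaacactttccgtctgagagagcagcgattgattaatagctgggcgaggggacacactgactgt
Zfp36 (chr7:28379179-28379478, minus strand): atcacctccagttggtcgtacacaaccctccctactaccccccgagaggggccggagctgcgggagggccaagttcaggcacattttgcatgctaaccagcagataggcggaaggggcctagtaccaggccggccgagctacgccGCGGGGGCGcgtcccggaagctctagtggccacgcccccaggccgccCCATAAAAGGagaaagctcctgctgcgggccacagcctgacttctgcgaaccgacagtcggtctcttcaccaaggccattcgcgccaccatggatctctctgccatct

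The 3 NR4A windows each held 4 matches to TGACG and no CArG box. Of all 32851 windows in the RefSeq table, 20.8% held at least 1 TGACG and 0.231% held at least 4. The count of 4 is the one seen in the NR4A windows, so the second share is a description. The NR4A windows were 64.7% to 81.7% GC, and no share was worked out for windows of like GC. A CArG box was found in the Egr2 windows and in that of Zfp36, against 1.63% of all windows. The 4 Egr2 windows with a match overlap in part and hold 2 distinct boxes. In the printed Egr2 window it lay 72 to 63 bases before the start site, between both TGACG matches, and in Zfp36 58 to 49 bases before it. The EGR site was matched once each in Nr4a1, Nr4a2 and Zfp36, against 5.55% of all windows. The NFAT core GGAAA was matched at 4 distinct places in the Egr2 windows and in that of Nr4a2, against 61.3% of all windows; the match beside the CArG box of 1 Egr2 window overlaps that box. The palindromic element TGACGTCA, which contains the half-site (1.79% of all windows), and the NR4A element AAAGGTCA (1.51%) were matched in none of the 10. The Ier5 window and the Egr2 window that spans the start of the deposited gene held none of these elements. Matches describe the letters of these windows and not where a factor was bound.

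Total counts were 14902248 to 18012387 in CUMS libraries and 17642478 to 18023206 in control libraries. Before any result, CUMS replicates 2 and 3 stood apart in depth of detection: of 1264 genes averaging 1 to 2 CPM (counts scaled to the library total, with TMM factors), 20.0% and 22.5% had no read in CUMS replicates 2 and 3, against 0.0791% in CUMS replicate 1 and 0.0791% to 1.90% in control libraries. Of 1501 genes averaging 2 to 5 CPM, 4.06% and 5.60% had no read in CUMS replicates 2 and 3 and 0 had none in the other libraries; of the 10 genes only Nr4a2 averaged in that range. Fold changes without both libraries are therefore given beside those of all libraries. They set CUMS replicate 1 alone against 3 controls, so all the spread comes from the controls; they are given as values, with no test. The 12 CD8 T cell markers summed to 6006 to 6470 CPM in CUMS libraries and 5191 to 5608 CPM in control libraries. Most of them, such as Cd3e and Lck, are shared by all T cells, so the sum does not set CD8 T cells apart. In bulk RNA, fewer cells of a type and less RNA per cell cannot be told apart.

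On a scale per transcript length (TPM), the order of the genes was alike at its upper end in both groups. Zfp36 had the highest mean, at 301 ± 44.0 TPM in CUMS and 419 ± 102 TPM in control (SD, n = 3 each). In CUMS replicate 3, however, Ier2 (331 TPM) lay above Zfp36 (313 TPM). Ier2 followed with 252 ± 69.6 TPM in CUMS and 281 ± 40.1 TPM in control, and Ier5 with 222 ± 66.6 and 229 ± 49.0 TPM, levels of Ier2 and Ier5 that lay within each other's spread. Cd69 stood at 69.4 ± 6.44 TPM in CUMS and 69.5 ± 7.46 TPM in control. Below it the order differed between the groups. In CUMS, Egr1 came next (36.2 ± 11.2 TPM), then Nr4a1 (25.5 ± 7.25), Egr3 (15.03 ± 2.11), Egr2 (10.1 ± 3.90), Nr4a3 (8.74 ± 2.23) and Nr4a2 (1.496 ± 1.02), where levels overlapped over libraries in the pairs Egr1 with Nr4a1, Egr3 with Egr2 and Egr2 with Nr4a3, but not Egr3 with Nr4a3 (12.7 to 16.9 against 7.08 to 11.3 TPM). In control, Nr4a1 came before Egr1 (36.1 ± 7.84 and 21.8 ± 2.90 TPM), and Nr4a3 and Egr3 (10.7 ± 2.97 and 9.78 ± 2.20 TPM) before Egr2 (4.80 ± 1.604) and Nr4a2 (2.33 ± 0.134).

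**Figure D1:**
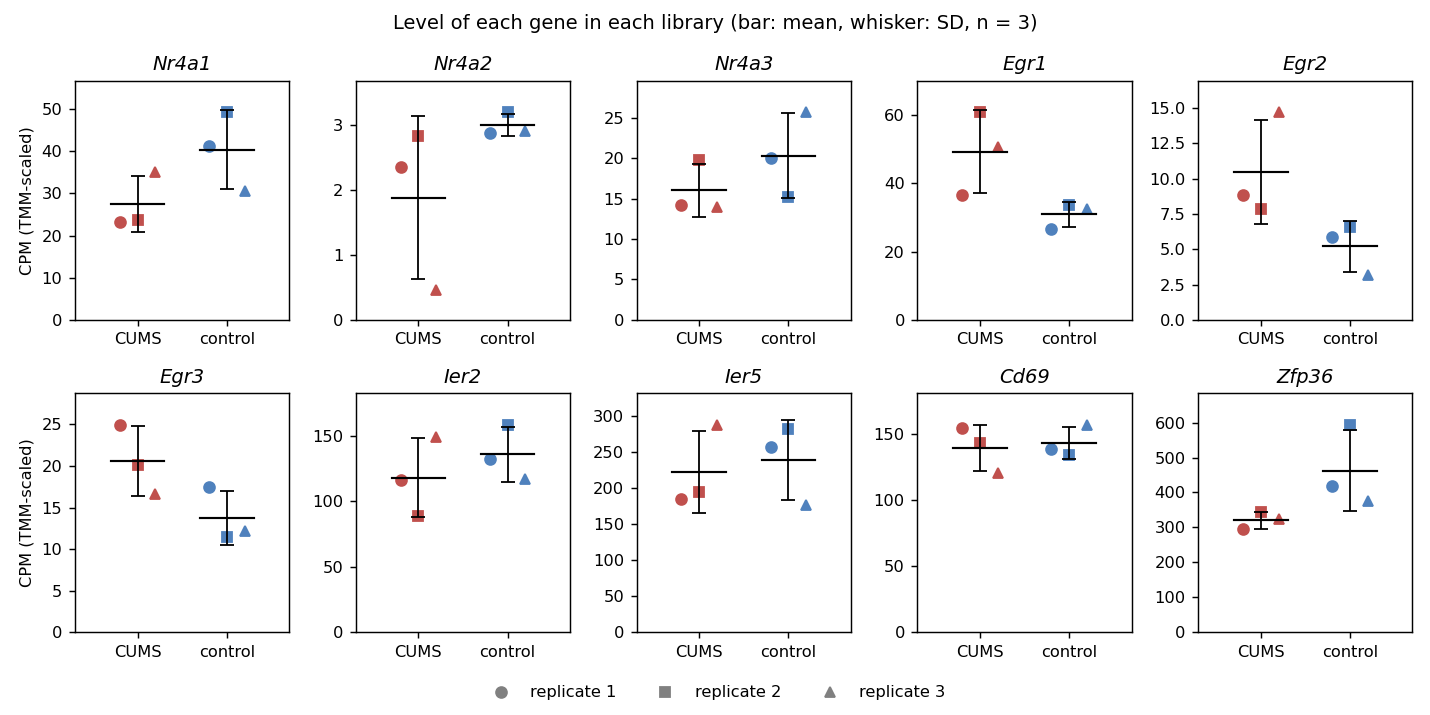
Level of each of the 10 genes in CPM (y axis, from 0) in the 3 CUMS and 3 control libraries; points are libraries, the bar is the mean and the whisker the SD. All CUMS points lie above all control points for Egr1 and Egr2 and below them for Nr4a2 and Zfp36, while the points of the other 6 genes overlap.

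CUMS libraries were compared with control libraries to see which of these transcripts differed. None of the 10 passed a Benjamini-Hochberg adjusted p of 0.05 in edgeR's quasi-likelihood test, which called 1.31% of the 14054 genes tested (184, 51 higher and 133 lower). At an unadjusted p under 0.05 were 5 of the 10, Egr1, Egr2, Egr3, Nr4a1 and Zfp36, against 15.3% of all genes. The groups did not overlap for 2 of the 10 on the higher side, against 10.8% of all genes, and for 2 on the lower side, against 11.9%. The median log2 fold change was -0.15 over the 10 and -0.0051 over all genes. DESeq2 called Egr1 and Zfp36, and limma voom with sample quality weights called Egr1. A gene that missed the threshold is not thereby shown to be unchanged, and the 95% intervals below give the sizes that remained possible.

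**Figure D2:**
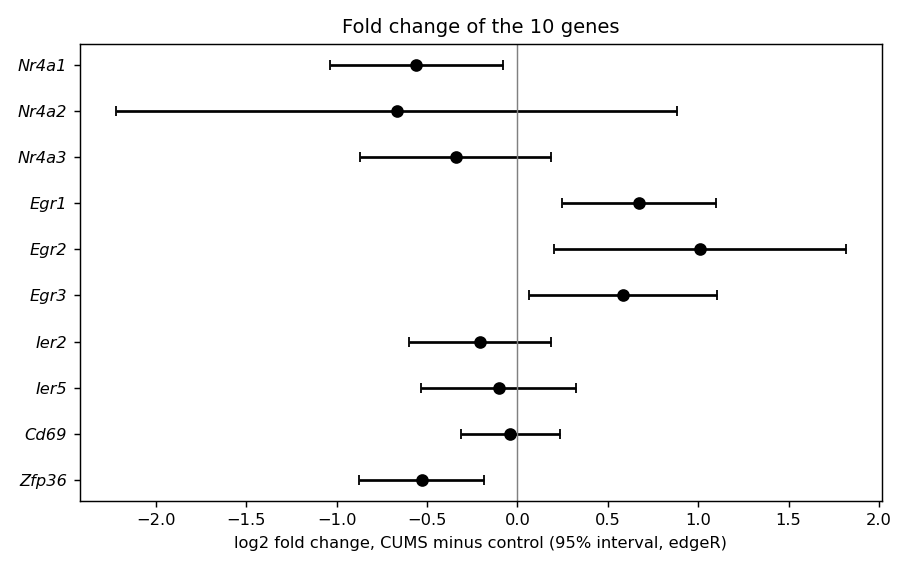
Log2 fold change of CUMS minus control for each of the 10 genes (x axis) with its 95% interval from the edgeR fit, 3 libraries a group. The points of the 3 EGR genes lie at 0.58 to 1.01 and those of the 3 NR4A genes at -0.67 to -0.34, and no gene passed the adjusted threshold.

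Nr4a1 (ENSMUSG00000023034, mm10 chromosome 15, 101254269 to 101274795, plus strand) encodes NUR77 and is widely used as a reporter of T cell receptor signalling. It had 23.3, 23.8 and 35.1 CPM in CUMS replicates 1, 2 and 3, against 41.2, 49.2 and 30.6 CPM in control replicates 1, 2 and 3. CUMS replicates 1 and 2 lay below every control library, and CUMS replicate 3 lay between control replicates 3 and 1. The log2 fold change was -0.56 ± 0.22 (SE, 95% interval -1.04 to -0.08; edgeR adjusted p = 0.248), and -0.80 without CUMS replicates 2 and 3. Nr4a3 (ENSMUSG00000028341, chromosome 4, 48045153 to 48086447, plus strand), which encodes NOR1, had 14.3, 19.8 and 14.0 CPM in CUMS, against 19.99, 15.2 and 25.7 CPM in control. The groups overlapped, with a log2 fold change of -0.34 ± 0.24 (-0.87 to 0.19; edgeR adjusted p = 0.568), and -0.51 without CUMS replicates 2 and 3.

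Nr4a2 (ENSMUSG00000026826, chromosome 2, 57106830 to 57124003, minus strand), which encodes NURR1, was the rarest of the 10. It had 42, 46 and 7 reads in CUMS replicates 1, 2 and 3, against 51, 57 and 51 reads in the control libraries. The difference rested on CUMS replicate 3, at 0.462 CPM, while CUMS replicates 1 and 2, at 2.36 and 2.83 CPM, came close to the 2.89 to 3.20 CPM of the controls. The log2 fold change was -0.67 ± 0.71 (-2.22 to 0.88; edgeR adjusted p = 0.738) with all libraries, -0.22 without CUMS replicate 3 and -0.35 without CUMS replicates 2 and 3.

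Egr1 (ENSMUSG00000038418, chromosome 18, 34859823 to 34864984, plus strand) is a target of ERK and SRF. It had 36.5, 60.9 and 50.6 CPM in CUMS replicates 1, 2 and 3, against 26.7, 33.6 and 32.6 CPM in control. Every CUMS library lay above every control library, CUMS replicate 1 by the least. The log2 fold change was 0.67 ± 0.19 (0.24 to 1.10; edgeR adjusted p = 0.122). It passed with DESeq2 (DESeq2 adjusted p = 0.038), with limma voom (limma adjusted p = 0.0292) and in edgeR without a filter on low counts (edgeR adjusted p = 0.0109). It was 0.23 without CUMS replicates 2 and 3, the libraries that stood apart.

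Egr2 (ENSMUSG00000037868, chromosome 10, 67535475 to 67542188, plus strand), which with Egr3 restrains T cell activation and supports anergy, had the largest fold change of the 10. It had 8.87, 7.88 and 14.7 CPM in CUMS, against 5.89, 6.58 and 3.15 CPM in control. The groups did not overlap, and the highest CUMS library (replicate 3) and the lowest control library (replicate 3) set much of the distance. The log2 fold change was 1.01 ± 0.37 (0.20 to 1.81; edgeR adjusted p = 0.218), 0.68 without CUMS replicate 3 (edgeR adjusted p = 0.405) and 0.76 without CUMS replicates 2 and 3. Egr3 (ENSMUSG00000033730, chromosome 14, 70077203 to 70082614, plus strand) had 24.99, 20.1 and 16.6 CPM in CUMS, against 17.5, 11.5 and 12.2 CPM in control. Only CUMS replicate 3 fell below the highest control library. Its log2 fold change was 0.58 ± 0.24 (0.06 to 1.11; edgeR adjusted p = 0.270), and 0.86 without CUMS replicates 2 and 3.

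Set against each other within a library, the families gave values that need no scaling between libraries. The sum of Egr1, Egr2 and Egr3 reads was 1.76, 1.91 and 1.66 times that of Nr4a1, Nr4a2 and Nr4a3 reads in CUMS replicates 1, 2 and 3, against 0.782, 0.763 and 0.809 times in control replicates 1, 2 and 3. EGR reads outnumbered NR4A reads in each CUMS library and were outnumbered by them in each control library. The mean ratio was 1.78 ± 0.130 in CUMS and 0.785 ± 0.0228 in control (SD, n = 3 each), 2.27 times as high in CUMS; per length (TPM) it was 2.32 times as high. It was 2.18 to 2.34 times as high with any single library left out and 2.25 times as high with CUMS replicate 1 alone. The summed EGR level was 70.4, 88.8 and 81.99 CPM in CUMS, against 50.1, 51.7 and 47.9 CPM in control, and the summed NR4A level was 39.9, 46.4 and 49.5 CPM in CUMS, against 64.0, 67.7 and 59.3 CPM in control. This ratio was formed after the values were seen, so it is a description and was given no test.

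The ratio was also formed for each pair of genes. Of the 9 ratios of an EGR gene to an NR4A gene, 8 were higher in every CUMS library than in every control library, and the exception was Egr2 to Nr4a3. Each EGR gene had a positive and each NR4A gene a negative log2 fold change, so a lean to higher ratios in CUMS was given beforehand. The 9 share the same genes, so they are not separate results, and no share over other gene pairs was worked out. The ratios to Nr4a2 include CUMS replicate 3 with 7 Nr4a2 reads. Egr1 reads were 1.44 to 2.56 times Nr4a1 reads in CUMS libraries and 0.649 to 1.06 times in control libraries. Of the leading gene of each family, Nr4a1 made up 70.8 ± 8.85% of summed NR4A TPM in CUMS and 72.9 ± 8.73% in control, and Egr1 58.1 ± 8.41% of summed EGR TPM in CUMS and 59.9 ± 7.87% in control (SD, n = 3 each).

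**Figure D3:**
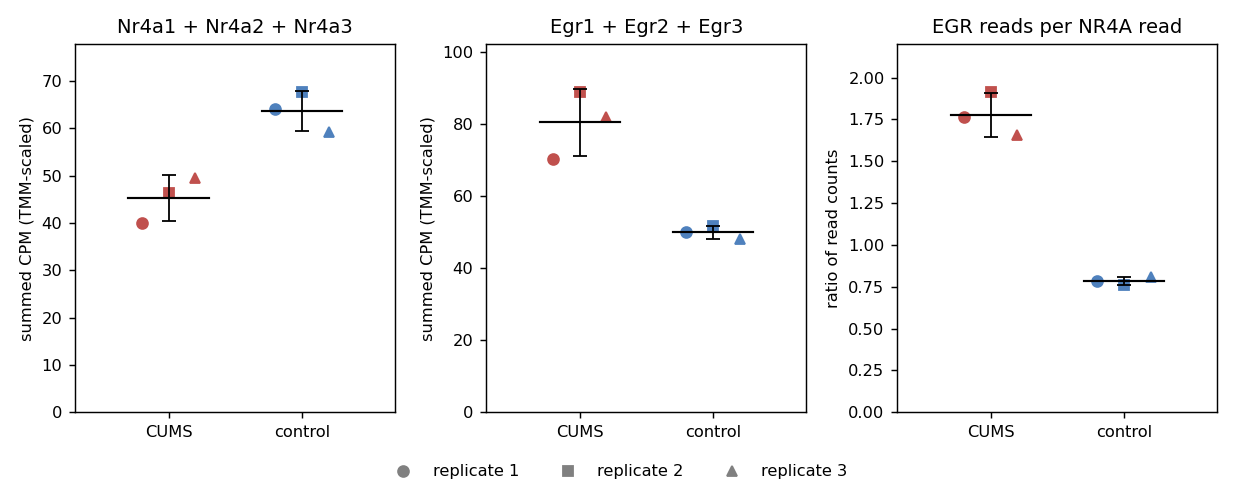
Summed level of the NR4A genes (left, CPM), summed level of the EGR genes (middle, CPM) and EGR reads per NR4A read (right, ratio of counts) in each CUMS and control library; points are libraries, the bar is the mean and the whisker the SD. The ratio lies at 1.66 to 1.91 in CUMS and at 0.763 to 0.809 in control.

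Ier2 (ENSMUSG00000053560, chromosome 8, 84661331 to 84662852, minus strand), whose protein is found in the nucleus, had 116, 88.8 and 149 CPM in CUMS, against 132, 159 and 117 CPM in control. Ier5 (ENSMUSG00000056708, chromosome 1, 155096361 to 155099636, minus strand), known as a partner of heat shock factor 1, had 185, 194 and 288 CPM in CUMS, against 258, 282 and 177 CPM in control. For both genes CUMS replicate 3 lay with or above the higher controls and control replicate 3 lay lowest of the controls, so that the groups overlapped broadly. The log2 fold changes were -0.20 ± 0.18 for Ier2 (-0.60 to 0.19; edgeR adjusted p = 0.660) and -0.10 ± 0.20 for Ier5 (-0.53 to 0.32; edgeR adjusted p = 0.871). Without CUMS replicates 2 and 3 they were -0.24 and -0.38.

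Cd69 (ENSMUSG00000030156, chromosome 6, 129267325 to 129275436, minus strand), the surface activation and residency marker, had 155, 144 and 121 CPM in CUMS, against 139, 134 and 158 CPM in control. Its libraries interleaved, and its log2 fold change of -0.04 ± 0.12 had the narrowest interval of the 10, -0.31 to 0.23 (edgeR adjusted p = 0.933); it was 0.11 without CUMS replicates 2 and 3. Zfp36 (ENSMUSG00000044786, chromosome 7, 28376784 to 28380253, minus strand) had 294, 344 and 323 CPM in CUMS, against 418, 595 and 376 CPM in control. Every CUMS library lay below every control library, and control replicate 2 lay far above the others. The log2 fold change was -0.53 ± 0.16 (-0.87 to -0.19; edgeR adjusted p = 0.130), -0.31 without control replicate 2 (edgeR adjusted p = 0.499) and -0.66 without CUMS replicates 2 and 3. It passed with DESeq2 (DESeq2 adjusted p = 0.0116) and in edgeR without a filter (edgeR adjusted p = 0.00148). An antisense gene, Gm44710, overlaps Zfp36 with 0 to 3 reads a library; the other 9 genes overlap no gene of the table.

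Control replicate 2 was the highest control for 7 of the 10 genes. It also held the most reads of neutrophil markers, 6041 CPM summed over 10 markers, against 3808 and 3802 CPM in control replicates 1 and 3. The CUMS libraries held 2664, 2550 and 2413 CPM of these markers. Of 9 neutrophil markers tested, 3 fell (Cxcr2, Il1b and S100a9) and 9 had a negative log2 fold change, with a median of -0.87; the granule gene Camp had 3, 0 and 0 reads in CUMS and 14, 19 and 2 in control. Of 10 monocyte markers 3 fell (Cd300e, Ccr2 and Cd14), with a median of -0.73 and a sum of 677 to 803 CPM in CUMS libraries and 840 to 1038 CPM in control libraries. Of 5 Kupffer cell and macrophage markers tested 3 fell (Hmox1, Slc40a1 and Cd68; median -1.07), with sums of 94.2 to 99.1 CPM in CUMS and 165 to 249 CPM in control, but the Kupffer cell genes Clec4f and Vsig4 had at most 8 reads in any library and Timd4 had 0 in all. The part of these cells in the values of Zfp36, Nr4a1 or the other genes was not tested.

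Markers of other lymphocytes also differed. Of 10 CD4 and regulatory T cell markers, 4 fell, and their sum was 251 to 295 CPM in CUMS libraries and 499 to 541 CPM in control libraries. The 10 include Trdc, a gene of the delta chain of the T cell receptor, so the sum is not of CD4 and regulatory T cell genes alone. Cd4 had 91.8, 93.95 and 96.4 CPM in CUMS, against 233, 239 and 218 CPM in control (edgeR adjusted p = 0.000362), and Foxp3, Zbtb7b and Cd40lg fell with it. Cd8a rose, with 1218, 1162 and 1161 CPM in CUMS, against 820, 741 and 838 CPM in control (edgeR adjusted p = 0.0225). Of the NK cell (9 tested, median -0.61), dendritic cell (8, -0.46), B cell and plasma cell (10, 0.04), hepatocyte (6, 1.10) and liver endothelial (2, -0.08) markers, edgeR called none. At an unadjusted p under 0.05 were 4, 2, 1, 1 and 1 of them in that order. Of the genes named next, DESeq2 called Tyrobp, Fcer1g and Jchain, and limma voom called Tyrobp and Jchain. By smallest p the nearest of these were Tyrobp and Fcer1g (NK cell), Itgax and Ccr9 (dendritic cell), Jchain (B cell and plasma cell), Apoa1 and Apob (hepatocyte), and Pecam1 and Fcgr2b (liver endothelial). The names in brackets are those of the lists and do not show which cells the reads came from. Itgax and Ccr9 went in opposite directions (log2 fold change -0.64 and 0.31). Liver endothelial Lyve1 had 0 reads in all libraries and Stab2 at most 8. Their part in the NR4A and EGR values was not tested.

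Among 38 other immediate-early genes tested, 1 rose, 6 fell and 31 did not pass, and 30 of the 38 had a negative log2 fold change, with a median of -0.46 against -0.0051 over all genes. The genes that fell were the survival gene Mcl1, the AP-1 genes Fosl2, Fos and Jun, the kinase Sik1 and the signalling regulator Rgs2. Fos, like Egr1 a target of SRF, had 181, 186 and 185 CPM in CUMS, against 276, 402 and 269 CPM in control. Its groups did not overlap, and its log2 fold change was -0.78 ± 0.15 (edgeR adjusted p = 0.0316), on the other side of 0 from the 0.67 of Egr1. Fosl2 had a log2 fold change of -1.02 ± 0.18 and Mcl1 of -0.64 ± 0.10 (edgeR adjusted p = 0.0229 and 0.0188). The gene that rose was Myc, a driver of cell growth, at 137 ± 21.6 CPM in CUMS and 87.4 ± 7.63 CPM in control (SD, n = 3 each; log2 fold change 0.65 ± 0.14; edgeR adjusted p = 0.0448). Rgs2, Jun and Myc lie outside the rule for naming genes and are named because they complete the count. None of the 38 was called by edgeR without control replicate 2 or without CUMS replicate 2, while DESeq2 called 18 and limma voom 14 with all libraries.

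The upstream routes held no gene called by edgeR. Of 22 genes of calcium, calcineurin and NFAT signalling, edgeR called none in either direction (3 at an unadjusted p under 0.05), DESeq2 called Ppp3cc and limma voom none, and the median log2 fold change was 0.03 (-0.14 without CUMS replicates 2 and 3). The 2 with the smallest p were the calcineurin subunit Ppp3cc (0.47 ± 0.13, edgeR adjusted p = 0.105) and the calcium channel Orai2 (0.32 ± 0.11, edgeR adjusted p = 0.214). Of 24 genes of the RAS, ERK, SRF and CREB route edgeR and limma voom called none (2 at an unadjusted edgeR p under 0.05) and DESeq2 called Ep300, with a median of -0.05. The coactivator Ep300 (-0.34 ± 0.11, edgeR adjusted p = 0.160) and the kinase Braf (-0.27 ± 0.12, edgeR adjusted p = 0.318) had the smallest p there.

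Called genes among partners and downstream genes were few in edgeR. Of 16 tested EGR partners and anergy-associated genes, 1 fell, Ndrg1, a T cell anergy factor, at 13.9 ± 3.05 CPM in CUMS and 29.2 ± 5.75 CPM in control (SD, n = 3 each; edgeR adjusted p = 0.046), and the list's median was -0.15; DESeq2 called 6 and limma voom 4. Ndrg1 missed the threshold in 5 of the 6 fits that left out 1 library, all but that without CUMS replicate 3. Of 19 NR4A partners and associated genes, 1 fell, Foxp3, which also stands among the CD4 and regulatory T cell markers. The list median was -0.22, and DESeq2 and limma voom each called 3. Of 22 genes of the ZFP36 family and mRNA decay edgeR and limma voom called none (3 at an unadjusted edgeR p under 0.05) and DESeq2 called Tob1 (list median -0.05). The nearest in edgeR were Tob1 (-0.46 ± 0.12, edgeR adjusted p = 0.0889) and Hnrnpd (0.30 ± 0.12, edgeR adjusted p = 0.263). Of 14 tested messages with AU-rich elements that ZFP36 binds, 1 fell, Il1b (2.01-fold lower, edgeR adjusted p = 0.0226), which also stands among the neutrophil markers, and the median was -0.39; DESeq2 called 3.

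Around Cd69, edgeR called none of 14 egress and residency genes (median -0.20; 7 at an unadjusted p under 0.05), while DESeq2 and limma voom each called Itgae and Cd44, as did edgeR with the stricter filter or with none. The integrin Itgae (CD103) had 0.49 ± 0.11 and Cd44 -0.59 ± 0.13 (edgeR adjusted p = 0.0545 and 0.0566). The egress receptor gene S1pr1, named outside the rule because CD69 acts on it, had 485 CPM in CUMS and 453 CPM in control (log2 fold change 0.10 ± 0.10, edgeR adjusted p = 0.727). Of 10 tested C-type lectin genes related to Cd69 edgeR called none (median -0.48; 3 at an unadjusted p under 0.05), DESeq2 called Klrb1c, and limma voom called Klrb1c and Klrd1. The nearest in edgeR were Klrb1c (-0.81 ± 0.21, edgeR adjusted p = 0.0883) and Klrd1 (0.41 ± 0.14, edgeR adjusted p = 0.193). Of 24 later T cell activation genes 2 fell, Icos and Cd40lg, both costimulatory molecules of helper T cells, with a median of -0.32. Cd40lg also stands among the CD4 and regulatory T cell markers. DESeq2 and limma voom each called 5 of the 24. Icos had 59.6, 54.4 and 64.4 CPM in CUMS, against 95.6, 93.8 and 100.4 CPM in control. Each missed the threshold in 5 of the 6 fits that left out 1 library, all but that without CUMS replicate 3.

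Heat shock chaperones are given beside Ier5, which is known to act with heat shock factor 1. This list, like the others, was chosen with earlier results of these data known, so its count is a description. It also holds the heat shock factor genes Hsf1 and Hsf2. Of 13 tested, 8 fell and 0 rose, with a median of -0.82. Hsph1 had 129, 125 and 99.1 CPM in CUMS, against 451, 408 and 469 CPM in control (edgeR adjusted p = 9.34e-05), and Hsp90aa1, Hspa8 and Dnajb1 fell by 1.35, 0.82 and 0.97 on the log2 scale. Ier5 itself had a log2 fold change of -0.10. Of these 4 chaperones, Hsph1, Hsp90aa1 and Dnajb1 passed in all 6 fits that left out 1 library, and Hspa8 in all but that without CUMS replicate 2. Of the other named genes past the threshold, Cd4 passed in all 6 and each of the rest was lost in at least 2 of them (Rgs2, Myc and Jun were examined only within the count of their list). Sik1, Ccr2 and Cd68 passed the threshold in 0 of the 6, and Fos, Cd14 and Hmox1, like Ndrg1, Icos and Cd40lg, in 1. Foxp3 missed it without CUMS replicate 2 and without each control replicate in turn, Il1b and Fosl2 without CUMS replicate 1, CUMS replicate 2 or control replicate 2, and Cd8a without CUMS replicate 2, control replicate 1 or control replicate 2. Some named genes overlap another gene of the table, so that their reads may be shared: Foxp3 with Flicr (up to 21 reads), Il1b with Il1bos (67), Icos with Gm37039 (93), Itgae with Haspin (322) and Braf with Ndufb2 (254). Ccr9 overlaps Gm10052 (up to 592 reads) and Lztfl1 (up to 381 reads).

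**Figure D4:**
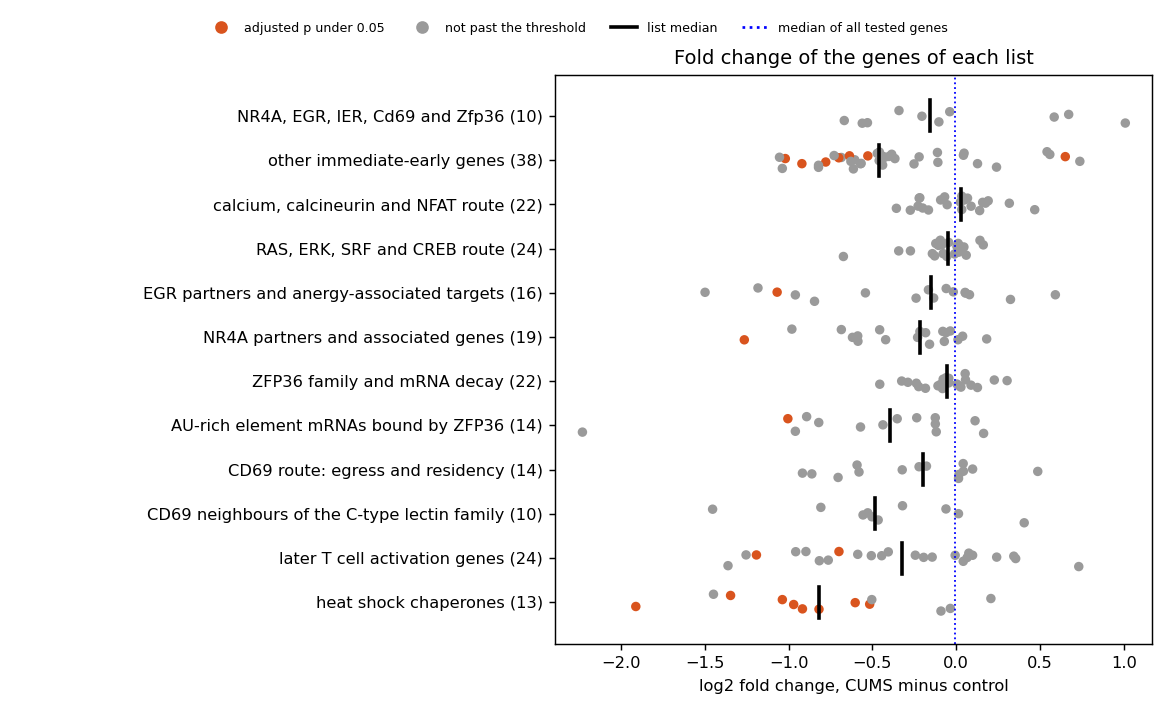
Log2 fold change of CUMS minus control (x axis) for the tested genes of each list (rows, number tested in brackets); orange points passed an edgeR adjusted p of 0.05, black bars are list medians and the dotted line is the median of all tested genes. Points of the other immediate-early genes and of the heat shock chaperones lie mostly left of the dotted line, and 3 of the top row lie right of it.

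The mean profile of the 10 over the 6 libraries was nearly flat, from -0.12 in control replicate 3 to 0.13 in control replicate 2 as centred log2 CPM. Of 7735 other genes at a log2 CPM of 4 or more, the 5 closest to it by root mean square distance were Itpk1 (0.0167), Rcsd1 (0.0187), Rnf31 (0.0297), Rnf145 (0.0329) and Irf3 (0.0394). The distance of the 10 genes themselves from their mean ran from 0.178 for Cd69 to 0.854 for Nr4a2, so this mean describes Cd69 best and the NR4A and EGR genes poorly.

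**Figure D5:**
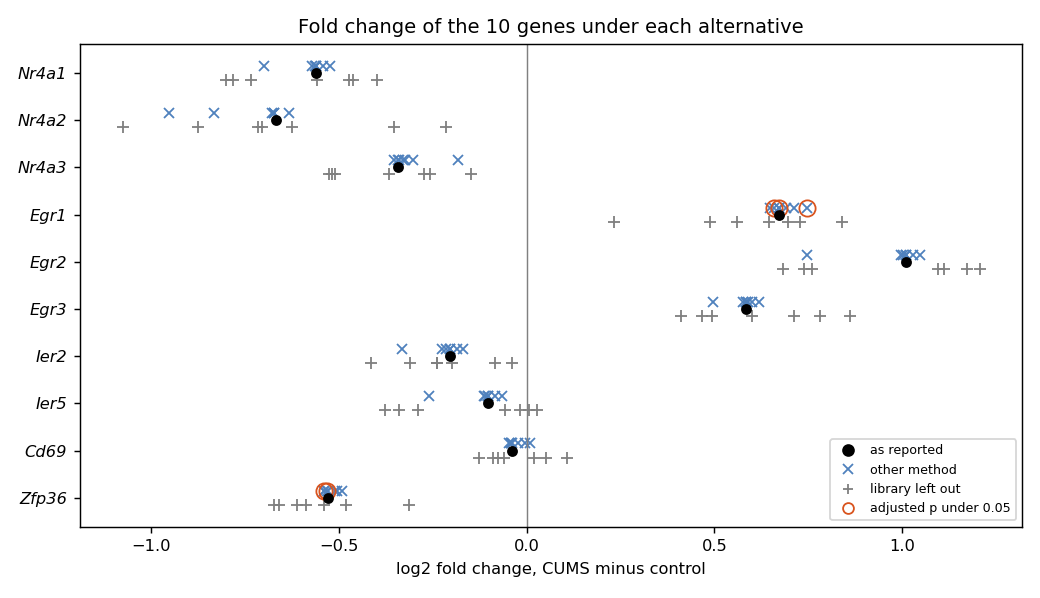
Log2 fold change of CUMS minus control (x axis) for each of the 10 genes as reported (black), with other methods (crosses) and with libraries left out (plus signs); orange rings mark values past an adjusted p of 0.05. The 3 EGR genes stay above 0 and the 3 NR4A genes and Zfp36 below 0 under all alternatives shown, while Cd69 and Ier5 cross 0.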

How the data were processed

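Messenger RNA of liver CD8+ T cells was fragmented and copied with random primers, per the labels' protocols. Build mm10, featureCounts 1.5.0-p3, HISAT2 2.0.5, fastp and DESeq2 1.20.0 are named in the submitters' processing notes. Annotation release and strand setting: not given in the sources used here. The authors deposited unnormalized counts of reads for each gene, 14902248 to 18023206 per library. The 10 genes and the gene lists were chosen with earlier results of these data known, and no test over a list was made.

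The test was that of edgeR 4.0.16 (R 4.3.3), with filterByExpr at its defaults (14054 genes), TMM factors, a quasi-likelihood F test (legacy form) of CUMS against control over all 6 libraries, two-sided, with Benjamini-Hochberg adjustment over all genes and a threshold of 0.05. Each standard error is the absolute fold change over the root of F. With 3 against 3, the smallest p of a two-sided exact permutation test is 0.1, and that test was not used. TPM uses the deposited gene lengths. The genes named are the 10, up to 4 called genes per list or the 2 with the smallest p where none was called, and the 5 nearest by profile; others are marked. A gene that this rule names is not reported here. Mrtfa, Mrtfb and Ccn1 were matched by their older symbols Mkl1, Mkl2 and Cyr61. Replicates of a group differed by more than counting noise in every pair (chi-square per gene 9.27 to 33.5). The edgeR steps were tested on simulated data. Of 104 calls there, 12 were false, and with nothing changed there were 0 calls. Of genes set to change 1.5 fold 18% were recovered, and of those set to change 2 fold 42%. Alternatives were DESeq2 1.42.0, limma 3.58.1 voom with quality weights, other size factors and filters, a replicate block and leaving libraries out. Figures were drawn with matplotlib 3.10.9.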

Additional observations from a re-analysis of the deposited data

How the results depend on the processing

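Under 14 alternatives, the log2 fold changes of Nr4a1, Nr4a3, Egr1, Egr2, Egr3, Ier2 and Zfp36 kept their sign in all 14 and that of Nr4a2 in the 13 that tested it (the stricter filter, which asks for a mean of 50 counts and for 1 CPM or more in 3 libraries, removed it). Their ranges were -0.80 to -0.40 for Nr4a1, -1.08 to -0.22 for Nr4a2, -0.53 to -0.15 for Nr4a3, 0.23 to 0.84 for Egr1, 0.68 to 1.21 for Egr2, 0.41 to 0.86 for Egr3, -0.41 to -0.04 for Ier2 and -0.67 to -0.31 for Zfp36. The sign reversed for Cd69 with limma voom (0.00796), without CUMS replicate 3 (0.0525), without control replicate 3 (0.02) and without CUMS replicates 2 and 3 (0.11), and for Ier5 without CUMS replicate 1 (0.00690) and without control replicate 2 (0.0268). With 1 library left out, Cd69 ran from -0.128 to 0.0525 and Ier5 from -0.339 to 0.0268. Without CUMS replicates 2 and 3 it also reversed for the markers Apob (-0.57) and Fcgr2b (0.0887).

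Of the 10 genes, 2 passed without a filter and with DESeq2, 1 with limma voom, and 0 otherwise, also with every single library left out. The count over all genes, 184, was 704 without a filter, 316 with the stricter filter, 636 with DESeq2 (209 higher and 427 lower), 497 with limma voom (205 higher and 292 lower), 9 to 178 with 1 library left out and 7 without CUMS replicates 2 and 3. The 20 list genes past the threshold became 46 without a filter, 49 with DESeq2, 40 with limma voom, 4 to 19 with 1 library left out and 3 without CUMS replicates 2 and 3. The fit without both CUMS libraries has 1 CUMS library, assumed to vary like the controls, so its lost calls say nothing on stability. The cause of the other shifts was not tested. Same-numbered libraries did not deviate together (r = 0.0137, -0.0358 and -0.0369). With 3 libraries a group this gives no sign of a pairing but cannot exclude one. With a replicate block 71 genes, 9 list genes and 0 of the 10 passed. The ratio of EGR to NR4A reads and its alternatives were added after the data were seen. Depth limits Nr4a2 most, with 7 to 57 reads a library; 3 reads, the most that a count of 0 allows, are 0.167 to 0.201 CPM, and cover counting error only.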
